A study of Mus musculus with 6 samples.

Results

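The genes of glucose use and of the response to low oxygen were followed in mouse embryonic stem (ES) cells in which human GTF2I can be switched on. The set was a list of 36 gene symbols, and a member was taken through the probe sets of the array that carry its symbol alone. Where a member had several such probe sets, the brightest over the 6 arrays represented it and the others were set beside it. This gave 32 genes on 73 probe sets, out of 18193 genes and 45037 probe sets tested. Of the other 4 listed genes, Gpi1 and Eno1 had no probe set in the annotation used here, Bnip3l stood only on probe sets that it shares with a pseudogene, and Gapdh stood alone only on the control probe sets of the array. Of the 32 genes, 18 belong to glucose uptake, glycolysis and the fate of pyruvate, and 14 to oxygen sensing and the hypoxia response. Pfkfb3 was the only one with a mean under 6 on the log2 scale, the level below which a probe set is called dim here.

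The cells descend from the mouse ES line EBRTcH3 (EB3), grown with serum and leukemia inhibitory factor. Each of the 3 clones, A1, B3 and C6, carries the human GTF2I coding sequence without its untranslated ends and with a 3xFLAG tag at the ROSA26 locus, behind a promoter that tetracycline holds off. Each clone was hybridised once with tetracycline in the medium (uninduced, 0 h) and once 24 h after tetracycline was taken away (induced), which gave 3 arrays per state. All 6 arrays thus came from cells that carry the transgene, and a clone was measured once in each state. GTF2I encodes TFII-I, a transcription factor lost in Williams-Beuren syndrome. For all 6 samples the titles give GTF2I as the transgene and the genotype entry gives GTF2IRD2; the titles were taken here.

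Glycolysis turns glucose into pyruvate. Pyruvate is then reduced to lactate, which leaves the cell, or is oxidised in mitochondria. When oxygen falls, prolyl hydroxylases of the Egln family no longer mark the HIF1 alpha protein for destruction. The hypoxia-inducible factors then bind DNA at sites with a short core, often ACGTG. They raise many glycolytic genes together with genes for blood vessel growth, collagen modification and mitophagy. HIF1 alpha is controlled mainly as a protein, so the RNA of Hif1a does not measure its activity. Mouse ES cells are known for a strong glycolytic flux.

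The promoter windows of 3 members are shown because the results turn on these genes: Slc16a3 had the largest difference on induction, Pfkl was called between clones in its response, and Ankrd37 was called between clones in its level. Each line gives the 250 bases before the annotated start of transcription, from RefSeq on build GRCm38.p6, written 5′ to 3′ along the gene, with ACGTG in capitals where it occurs on either strand. The windows are chr11:120948817-120949066 on the plus strand for Slc16a3, chr8:45999851-46000100 on the minus strand for Ankrd37 and chr10:78009808-78010057 on the minus strand for Pfkl.
Slc16a3: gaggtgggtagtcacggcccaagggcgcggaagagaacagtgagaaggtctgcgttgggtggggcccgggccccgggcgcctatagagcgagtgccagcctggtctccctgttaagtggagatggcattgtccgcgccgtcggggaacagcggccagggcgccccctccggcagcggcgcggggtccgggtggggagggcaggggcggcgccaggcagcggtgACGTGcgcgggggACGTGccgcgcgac
Ankrd37: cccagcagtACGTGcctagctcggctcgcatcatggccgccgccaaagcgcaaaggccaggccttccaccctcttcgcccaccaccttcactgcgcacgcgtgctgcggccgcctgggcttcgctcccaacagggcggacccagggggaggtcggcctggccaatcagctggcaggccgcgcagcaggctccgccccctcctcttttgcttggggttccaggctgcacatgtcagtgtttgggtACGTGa
Pfkl: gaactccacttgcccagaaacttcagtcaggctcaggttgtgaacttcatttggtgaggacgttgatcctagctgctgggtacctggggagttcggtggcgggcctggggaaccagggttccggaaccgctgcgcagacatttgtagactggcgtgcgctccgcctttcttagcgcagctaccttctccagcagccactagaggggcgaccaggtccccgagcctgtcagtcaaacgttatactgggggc
The Slc16a3 window held ACGTG with its first base 27 and 14 bases before the start. The Ankrd37 window held it 241 and 6 bases before the start. The Pfkl window held no ACGTG on either strand, which says only that these letters are not in this stretch. Other forms of the core were not searched for in any window.

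Promoter windows were found for 33 of the 36 listed genes, all but Slc2a3, Bnip3l and Ndrg1. Over the whole window of 300 bases, from 250 before the start to 50 after it, 24 of these 33 genes (72.7%) had ACGTG on either strand in at least 1 of their windows. Of all 27025 genes with a window, 21.8% had it. Counted by window, since 12 of the 33 genes have several, 28 of 51 windows of the set (54.9%) and 19.6% of all 32851 windows had it. ACGTG also lies inside CACGTG, the E-box that Myc and the USF factors bind, and 5 of the 33 genes (15.2%) had CACGTG against 8.09% of all genes. The list was chosen for glycolysis and the hypoxia response and holds known hypoxia targets. Its share of ACGTG thus describes the list and was not tested.

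Array medians lay between 5.06 and 5.11, which quantile normalization makes nearly equal. Pairs of arrays correlated at 0.991 to 0.996 over the probe sets, a figure carried largely by differences in brightness between probe sets. Neither value tests the quality of the arrays. The 8 ES cell markers averaged 12.25 to 12.46 on each array, all 8 above a mean of 6, and of these Esrrb was called in the comparison of A1 (0.51, -0.36 and -0.65 on induction in A1, B3 and C6, adjusted p = 0.035). The 8 fibroblast and feeder markers averaged 4.74 to 4.88, with 2 of the 8 at a mean of 6 or more, the 4 endoderm markers 4.68 to 4.89, the 2 mesoderm markers measured 5.83 to 6.10 and the 3 neural markers 6.13 to 6.38. The 4 probe sets of mouse Gtf2i differed by -0.88 to 0.23 on induction in the 3 clones and 0 were called. Whether they hybridise with the human transgene was not tested. The paper's RT-PCR time course gave more human GTF2I RNA at 24 h than at 0 h in each of A1, B3 and C6. Of the control probe sets shown, the 3 for 18S ribosomal RNA differed most between the clones. They were lower after induction in A1, by -1.10 (3′ end), -0.84 (middle) and -0.58 (5′ end). They were higher in B3 (1.77, 1.92 and 2.52) and in C6 (1.98, 1.50 and 1.89). Those of Actb differed by -0.18, -0.20 and -0.20 in A1, 0.07, -0.08 and -0.16 in B3 and 0.06, -0.05 and 0.02 in C6. The 3′ minus 5′ value of Actb was 0.58 on the induced B3 array and 0.35 to 0.47 on the others. The part of these control values in the differences between clones given below was not tested.

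**Figure D1:**
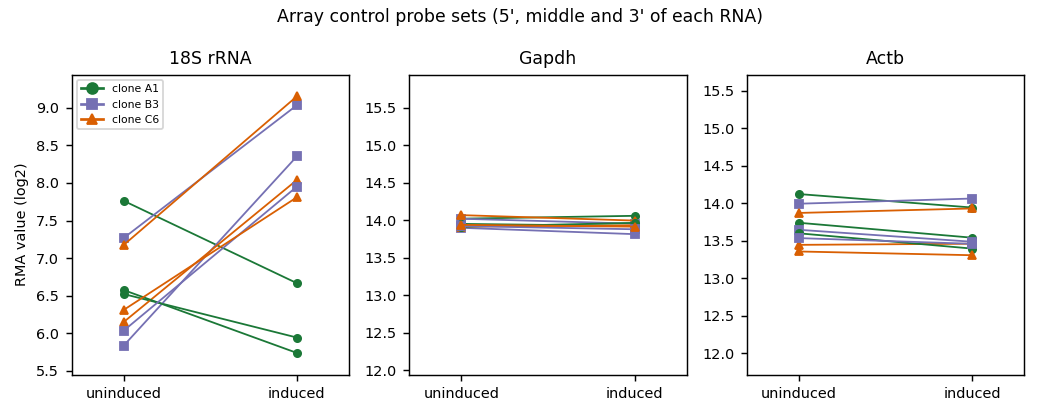
Control probe sets of the array by state, as RMA values on the log2 scale (each panel spans 4 units); each line joins the 2 arrays of a clone for 1 probe set (5′, middle or 3′ of the RNA). The 18S ribosomal RNA lines run down in A1 and up in B3 and C6. Those of Gapdh, all between 13.81 and 14.07, stay nearly level, and those of Actb differ by -0.20 to 0.07.

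Induction as such called no member. In bulk RNA, a gene lower in each cell and fewer cells with the gene cannot be told apart. Between the 3 induced and the 3 uninduced arrays, 0 of the 32 genes passed the test (limma, adjusted p under 0.05 over 45037 probe sets), beside 0% of all probe sets, and 0 of the 32 had an unadjusted p under 0.05, against 436 probe sets (0.968%). By the methods' t-test 867 probe sets had an unadjusted p under 0.05, again with 0 of the members. With the clone as a replicate block, which sets each induced array against the uninduced array of its clone, 0% were called (847 at an unadjusted p under 0.05) and 0 members. The differences of the members ran from -0.77 for Slc16a3 to 0.14 for Bnip3, with 16 above 0, 16 below and a median of -0.00, the same as over all genes. The 95% interval of a member reached a median of 0.36 to either side of its estimate, and 0.26 with the replicate block.

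The direction of the differences was not the same in the 3 clones. In A1, 21 of 32 members were higher on the induced array (50.1% of all genes were), in B3 20 of 32 (49.9%), and in C6 5 of 32 (49.3%). The 5 that were higher in C6 were Hk2, Hif1a, P4ha1, Ankrd37 and Kdm3a, by 0.02 to 0.39. The median difference of the members was 0.09 (A1), 0.08 (B3) and -0.13 (C6), against 0.00, 0.00 and -0.00 over all genes. The members are bright genes, so the shares among the 9561 genes with a mean of at least 6 were taken too, and these were 48.5%, 52.3% and 48.0% higher in A1, B3 and C6.

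The members were then counted by role, with no test of the difference between the roles. Of the 18 glycolytic genes, 13 were higher in A1, 7 in B3 and only Hk2 in C6, with medians of 0.12, -0.07 and -0.21. Of the 14 oxygen sensing and hypoxia genes, 8 were higher in A1, 13 in B3 and 4 in C6. Their medians were 0.06, 0.19 and -0.06.

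By pattern over the 3 clones, 11 members had a higher induced array in A1 and a lower one in both B3 and C6 (22.9% of all genes), of which 10 were glycolytic: Slc2a3, Hk1, Pfkl, Pfkm, Pfkp, Pfkfb3, Tpi1, Pkm, Ldhb and Slc16a3, with Vegfa as the other. The reverse, with A1 lower and the others higher, held for Hk2, Hif1a and Kdm3a (22.6% of all genes). There were 8 that were lower in C6 alone (9.66% of all genes): Pgk1, Ldha, Pdk1, Egln3, Bnip3, P4ha2, Ndrg1 and Higd1a. None was higher in C6 alone (9.25%) and none lower in B3 alone (8.86%), while 7 were higher in B3 alone (9.15%): Slc2a1, Aldoa, Aldoc, Egln1, Adm, Mxi1 and Ddit4. P4ha1 and Ankrd37 were higher in all 3 clones (8.29%) and Pgam1 was lower in all 3 (8.37%), in A1 and B3 by less than 0.01. Where only genes averaging 6 or more were counted, A1 ran opposite to the others in a larger share, 30.0% with A1 higher and 30.8% with A1 lower.

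The difference of C6 was the lowest of the 3 clones for 26 of 32 members (35.5% of all genes, 38.3% of those with a mean of at least 6), for 16 of 18 glycolytic genes and for 10 of 14 of the others. With A1 left out, the C6 difference was below that of B3 for 31 of 32 (53.3% of all genes), Hif1a being the exception. These are counts over genes measured on the same 2 arrays of C6, so they describe that pair of arrays, and a low difference in C6 can stem from a high uninduced array as much as from a low induced one.

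**Figure D2:**
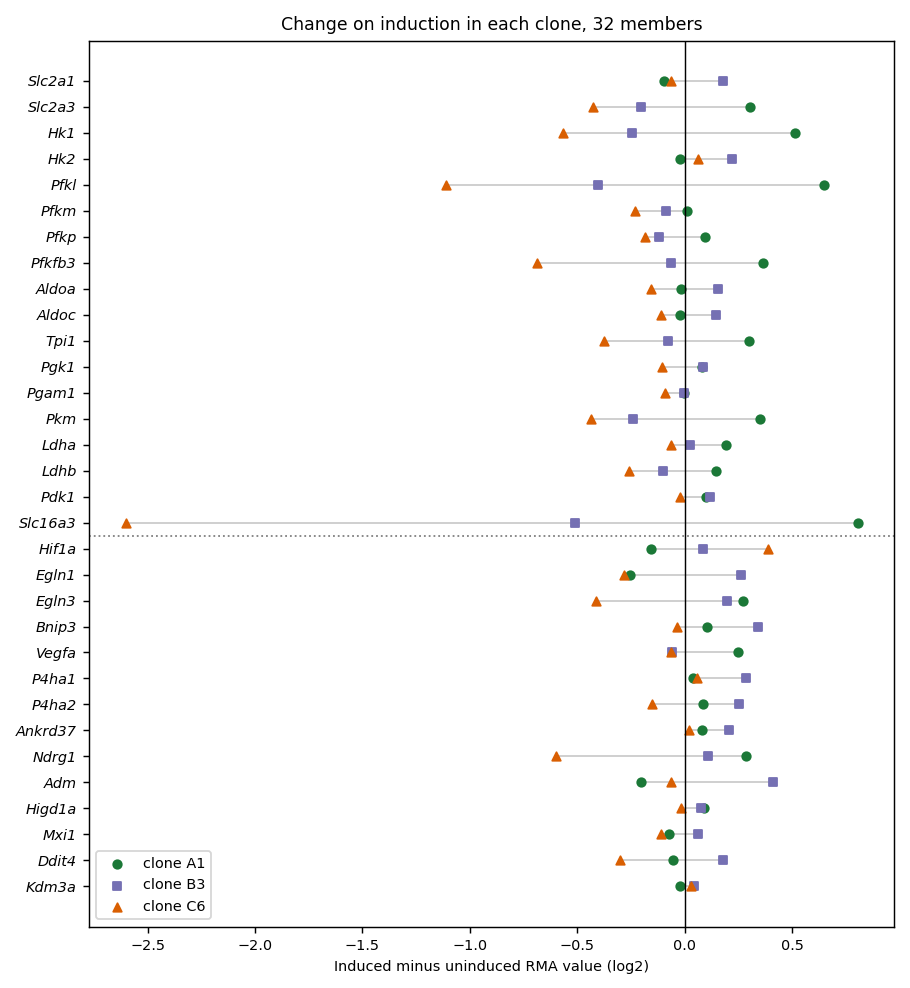
Induced minus uninduced RMA value (log2) of the brightest probe set of each of the 32 genes in clone A1 (circles), B3 (squares) and C6 (triangles); the dotted line parts the 18 glycolytic genes above from the 14 oxygen sensing and hypoxia genes below. The triangle is the leftmost of the 3 symbols in 26 rows, and the Slc16a3 row runs from 0.81 in A1 to -2.60 in C6.

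Set against each other, the clones gave 1 member called. The A1 difference against the mean of B3 and C6 called Pfkl among the 32, beside 2.71% of all probe sets called (769 with A1 above and 450 below), and 7 of 32 members had an unadjusted p under 0.05 against 17.1% of probe sets. The C6 difference against the mean of A1 and B3 called 0 members, beside 0% of probe sets, with 5 of 32 at an unadjusted p under 0.05 (Pfkl, Pfkfb3, Slc16a3, Egln3 and Ndrg1) against 1076 probe sets (2.39%). The B3 difference called 0 members beside 0%, with 0 of 32 and 432 probe sets (0.959%) at an unadjusted p under 0.05. These tests rest on 3 differences and 1 residual degree of freedom. The C6 difference minus the mean of the other 2 was below 0 for 30 of 32 members, with a median of -0.19 (-0.01 over all genes), and above 0 for Hif1a and Kdm3a. That of Kdm3a, 0.02, turned to -0.02 when each array was centred on its median.

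With A1 left out, B3 and C6 could be fitted with the clone as a replicate block, and this called Pfkl among the 32 members, beside 2.18% of all probe sets. With C6 left out, the same fit on A1 and B3 called 0 members beside 0%, with 0 members at an unadjusted p under 0.05 (470 probe sets), and 27 of 32 members were above 0 with a median of 0.09.

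Glucose enters ES cells mainly through the transporters Slc2a1 and Slc2a3. Slc2a1 stood at 11.95, 11.77 and 12.34 on the uninduced arrays of A1, B3 and C6 and at 11.85, 11.95 and 12.28 on the induced ones. Both C6 arrays were above the other 4, and the states overlapped. The difference on induction was 0.01 (95% interval -0.40 to 0.41, or -0.24 to 0.25 with the replicate block). Slc2a3 was lower on induction in C6 by -0.43 and in B3 by -0.21 and higher in A1 by 0.30, without passing the test of A1 (adjusted p = 0.14).

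Hexokinases trap glucose as glucose 6-phosphate, and Hk2 is the isoform that hypoxia raises. Hk2 read 10.16, 10.09 and 10.23 uninduced and 10.14, 10.31 and 10.30 induced in A1, B3 and C6. All 6 arrays lay close together and the states overlapped. Hk1, the isoform of most tissues, was 0.52 higher in A1 and 0.24 and 0.57 lower in B3 and C6 on induction. The A1 difference of Hk1 stood 0.92 ± 0.20 (SE) above the mean of the others with an adjusted p of 0.051, just short of the threshold.

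Phosphofructokinase commits the sugar to glycolysis, and its 3 subunits come from Pfkl, Pfkm and Pfkp. Pfkl read 10.20, 10.65 and 11.44 on the uninduced arrays of A1, B3 and C6 and 10.85, 10.24 and 10.33 on the induced arrays. The uninduced C6 array was the highest of the 6 and the uninduced A1 array the lowest, and the states overlapped. Pfkl was thus 1.57-fold higher after induction in A1, 1.32-fold lower in B3 and 2.16-fold lower in C6.

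The A1 difference of Pfkl was above the mean of B3 and C6 by 1.40 ± 0.27 (SE; limma, adjusted p = 0.033), and its call was lost with a variance trend (adjusted p = 0.059). In B3 and C6 alone, with the replicate block, Pfkl fell by 0.76 ± 0.16 (SE; adjusted p = 0.046). The C6 difference stood -1.23 ± 0.43 (SE) from the mean of A1 and B3 and did not pass (adjusted p = 1.00). As the promoter lines show, Pfkl is a member with no ACGTG in its window, and other forms of the core were not searched for.

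The other subunits differed less. Pfkp, the platelet form, read 10.49, 10.73 and 11.05 uninduced and 10.58, 10.61 and 10.86 induced in A1, B3 and C6. Both C6 arrays were above the other 4, and the differences on induction, 0.09, -0.12 and -0.18, followed the order seen in Pfkl at a smaller size. Pfkm, the muscle form, differed by 0.01, -0.09 and -0.23. Pfkfb3 makes fructose 2,6-bisphosphate, the activator of phosphofructokinase. It was dim and read 5.36, 5.50 and 6.27 uninduced and 5.72, 5.43 and 5.58 induced. The uninduced C6 array alone stood above 6.

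Aldolase and triose phosphate isomerase split and interconvert the sugar phosphates. Aldoa differed by -0.02, 0.15 and -0.16 in A1, B3 and C6, and Tpi1 by 0.30, -0.08 and -0.38. Aldoc, the brain form of aldolase, was 0.68 ± 0.10 (SE) higher in C6 than in A1 and B3 over both states, with an adjusted p of 0.090. Its differences on induction were small, -0.02, 0.15 and -0.11.

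The later steps yield ATP. The control probe sets of Gapdh lay between 13.81 and 14.07 on all arrays and differed by -0.08 to 0.05 on induction. Pgk1 differed by 0.08, 0.09 and -0.10 in A1, B3 and C6, and Pgam1 by -0.00, -0.00 and -0.09. Pkm, the pyruvate kinase of proliferating cells, had the A1 pattern, with 0.35, -0.24 and -0.43.

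Pyruvate meets lactate dehydrogenase, whose subunits are Ldha and Ldhb. Pdk1 is a kinase that holds back the oxidation of pyruvate in mitochondria. Ldha read 12.73, 12.85 and 13.05 uninduced and 12.92, 12.87 and 12.99 induced in A1, B3 and C6, and Pdk1 read 10.25, 10.22 and 10.36 uninduced and 10.35, 10.34 and 10.33 induced. For neither gene did an array of one clone differ from its partner by more than 0.20, and the states overlapped for both. Ldhb was at 10.21 and 10.36 in A1, 11.52 and 11.42 in B3 and 11.01 and 10.75 in C6, so that the clones differed more than the states did.

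Slc16a3 encodes MCT4, which exports lactate from highly glycolytic cells and is a known target of hypoxia-inducible factors. It read 7.46, 8.12 and 9.02 on the uninduced arrays of A1, B3 and C6 and 8.26, 7.61 and 6.41 on the induced arrays. The C6 clone held both the highest and the lowest of the 6 values. Slc16a3 was 1.75-fold higher after induction in A1, 1.42-fold lower in B3 and 6.07-fold lower in C6, and the C6 difference of -2.60 ranked 1 from the lowest among 45037 probe sets.

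No test across all probe sets called Slc16a3. The C6 difference stood -2.75 ± 0.51 (SE) from the mean of A1 and B3 (unadjusted p = 0.0015, adjusted p = 1.00), the A1 difference 2.36 ± 0.62 (SE) from that of B3 and C6 (adjusted p = 0.086), and the fit of B3 and C6 with the replicate block gave -1.56 ± 0.36 (SE; adjusted p = 0.063). The gene has 1 probe set on the array, so no second probe set stands beside it. Its promoter, printed above, has ACGTG in a pair close to the start.

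Hif1a encodes the regulated subunit of hypoxia-inducible factor 1. Hif1a read 11.01, 11.00 and 10.79 uninduced and 10.85, 11.08 and 11.18 induced in A1, B3 and C6. It was the 1 member whose C6 array was the lowest uninduced and the highest induced, opposite to the bulk of the set, and the states overlapped. Its C6 difference of 0.39 stood 0.42 above the mean of A1 and B3 and was not called.

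Egln1 and Egln3 encode prolyl hydroxylases that mark HIF1 alpha when oxygen is present, and Egln3 is itself raised by hypoxia. Egln1 read 7.77, 7.45 and 7.69 uninduced and 7.52, 7.71 and 7.41 induced in A1, B3 and C6, with the states overlapping. Egln3 was higher in A1 (0.27) and B3 (0.20) and lower in C6 (-0.41). The C6 difference of Egln3 stood -0.65 ± 0.23 (SE) from the mean of the others (unadjusted p = 0.028, adjusted p = 1.00).

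Among the targets, Ankrd37, a small ankyrin repeat protein and a widely used hypoxia marker, was the 1 called in level. It read 6.60 and 6.68 in A1, 6.47 and 6.67 in B3 and 7.53 and 7.55 in C6, uninduced and induced. The C6 arrays did not overlap with the others, and the induced and uninduced arrays did. Over both states Ankrd37 was 1.91-fold higher in C6 (0.93 ± 0.10, SE, on the log2 scale, limma adjusted p = 0.033). Each clone had its own mean in this fit, so the SE leaves out the gap in level between A1 and B3. The call was kept without either A1 array and lost without any 1 of the other arrays, with estimates of 0.87 to 1.00 and adjusted p of 0.27 to 0.46.

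Of the remaining targets, Vegfa, the growth factor of blood vessels, read 6.39, 6.52 and 6.63 uninduced and 6.63, 6.46 and 6.56 induced in A1, B3 and C6. Kdm3a, a histone demethylase, read 10.65, 10.80 and 10.71 uninduced and 10.63, 10.85 and 10.74 induced. The states overlapped for both genes, and the differences of Kdm3a were -0.02, 0.04 and 0.03.

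P4ha1 and P4ha2 modify collagen, and Adm encodes the peptide adrenomedullin. Their differences in A1, B3 and C6 were 0.04, 0.29 and 0.06 for P4ha1, 0.09, 0.25 and -0.15 for P4ha2 and -0.20, 0.41 and -0.07 for Adm. Bnip3, a mitophagy receptor, differed by 0.11, 0.34 and -0.04, and Ddit4, an inhibitor of the mTORC1 kinase, by -0.05, 0.18 and -0.30. Ndrg1, a stress response gene, had the largest of these differences, with 0.28, 0.11 and -0.60. For Higd1a, a mitochondrial protein, and Mxi1, an antagonist of Myc, every difference was under 0.12 in size. The 3 probe sets that Bnip3l shares with its pseudogene differed by -0.13 to 0.21.

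**Figure D3:**
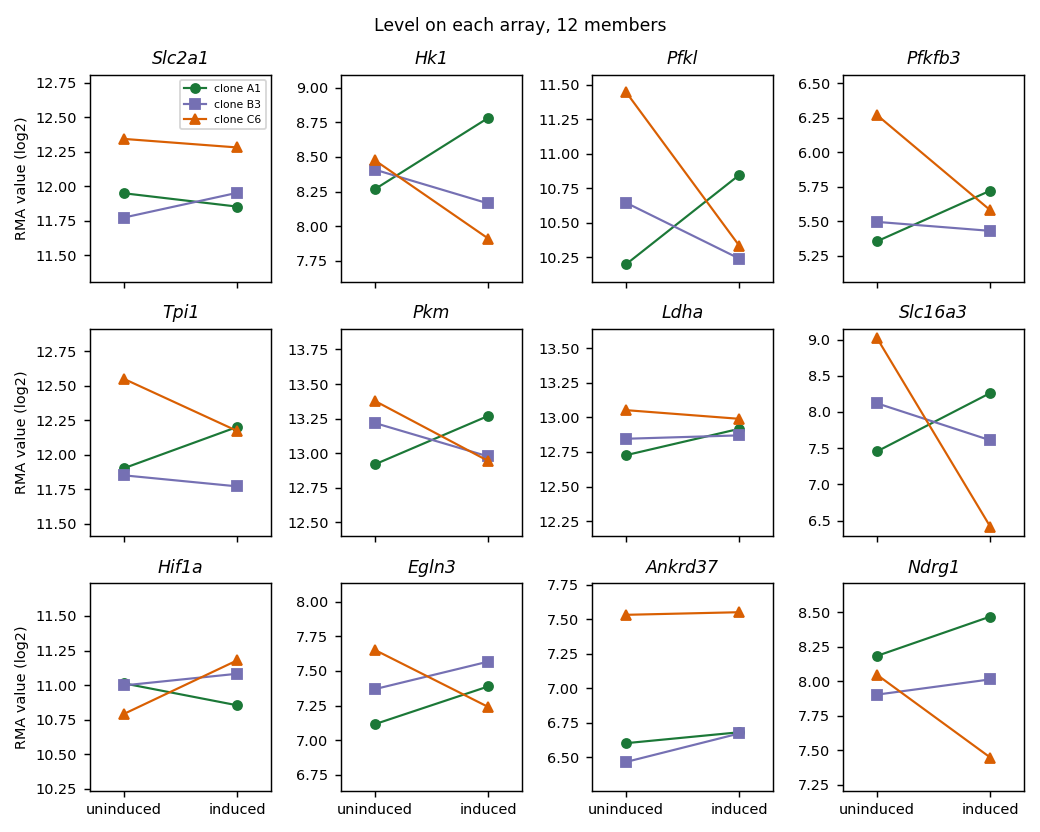
RMA value (log2) of 12 genes on each of the 6 arrays, with a line from the uninduced to the induced array of each clone; every panel has its own axis. In Pfkl and Slc16a3 the C6 line starts highest and drops while the A1 line climbs, and in Ankrd37 both C6 points lie above the rest.

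In level, C6 stood apart in the uninduced state. The uninduced C6 array was above both other uninduced arrays for 23 of 32 members (30.6% of all genes, 34.4% of those with a mean of at least 6), for 16 of the 18 glycolytic genes and 7 of the other 14. With A1 left out, it was above that of B3 for 28 of 32 (50.5% of all genes, 61.8% of those with a mean of at least 6). It was the highest of all 6 arrays for 17 of 32 (16% of all genes), 14 of them glycolytic. The difference from the mean of A1 and B3 had a median of 0.28, against 0.01 over all genes and 0.04 over those with a mean of at least 6, and was above 0 for all 18 glycolytic genes. It was largest for Slc16a3 (1.23), Pfkl (1.02), Ankrd37 (1.00), Pfkfb3 (0.84) and Ddit4 (0.79).

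On the induced arrays this was not so for most members. The induced C6 array was above both others for 10 of 32 (32.5% of all genes), and the difference had a median of -0.00, above 0 for 16 and below for 16. Slc16a3 (-1.52), Ndrg1 (-0.79) and Hk1 (-0.56) were then lowest relative to A1 and B3. Both C6 arrays were above the other 4 for 9 members (9.93% of all genes), which were Slc2a1, Pfkp, Aldoc, Pgk1, Ldha, Bnip3, P4ha1, Ankrd37 and Ddit4, and below the other 4 for 0 (7.46%).

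Tested over both states, the C6 level called Ankrd37 alone among the 32, beside 0.255% of all probe sets (70 higher and 45 lower), with 8 of 32 at an unadjusted p under 0.05 against 9.55% of probe sets, all 8 higher in C6. This count depended on the A1 arrays. Without the uninduced A1 array 6 members were called (Slc2a1, Aldoc, Bnip3, P4ha1, Ankrd37 and Ddit4, by 0.47 to 0.94) among 2353 probe sets, and without the induced A1 array 6 were called (Pfkl, Aldoc, Tpi1, Bnip3, Ankrd37 and Ddit4, by 0.56 to 0.93) among 927, all higher in C6. Leaving out any other array called 0 members.

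**Figure D4:**
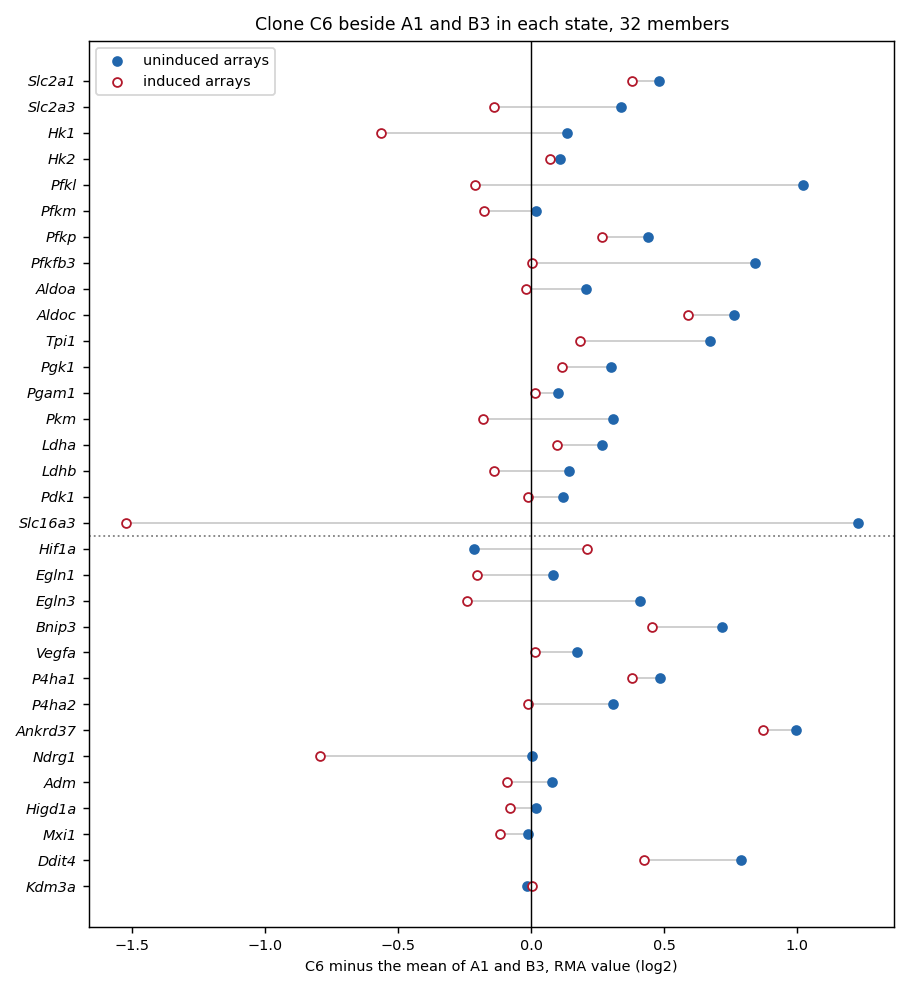
RMA value (log2) of clone C6 minus the mean of A1 and B3 for the 32 genes, on the uninduced arrays (filled) and on the induced arrays (open), with glycolytic genes above the dotted line. Filled points lie right of 0 for 29 genes, with a median of 0.28, and open points for 16, with a median of -0.00.

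Other probe sets of the same genes gave further calls. There were 21 members with more than 1 probe set and 41 probe sets besides the brightest, of which 23 had the sign of the brightest in A1, 24 in B3 and 29 in C6. In the A1 comparison 5 of the 73 probe sets were called, beside 2.71% of all probe sets. These were both bright probe sets of Pfkl, the dimmer one of Hk1 (0.58, -0.65 and -0.75 in A1, B3 and C6), the dimmest of Slc2a1 (0.43, -0.37 and -0.84) and the dimmer one of Egln1 (0.73, -0.50 and -1.02). For Pfkl the brighter pair gave the same order of clones, and the dim probe set differed by -0.24, 0.04 and 0.19.

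The brightest probe set did not always stand for its gene. The brightest probe sets of Slc2a1 (-0.10, 0.18 and -0.06 in A1, B3 and C6) and Egln1 (-0.25, 0.26 and -0.28) were lower in A1 and higher in B3. The called probe sets of these genes had the A1 pattern. In Slc2a3 the dimmer pair of probe sets differed by -0.94 and -0.91 in B3, against -0.21 and -0.24 for the brighter pair, and with the replicate block on B3 and C6 both dimmer ones were called. One probe set of Hif1a, with a mean of 7.96, differed by -0.76 in B3 and -0.31 in C6, while the brightest differed by 0.08 and 0.39. Both probe sets of Egln3 were lowest in C6. The dimmer one, with 0.58, 0.17 and -1.24, had an unadjusted p of 0.00079 in the test of C6, which called 0 probe sets after adjustment. The names of the brightest probe sets of Aldoa, Ldhb and Adm end in x_at and those of Slc2a3 and Ndrg1 in s_at, Affymetrix's marks for probes that other transcripts may share. Over all 73 probe sets, 15 were higher in C6, and the median difference in C6 was -0.21.

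**Figure D5:**
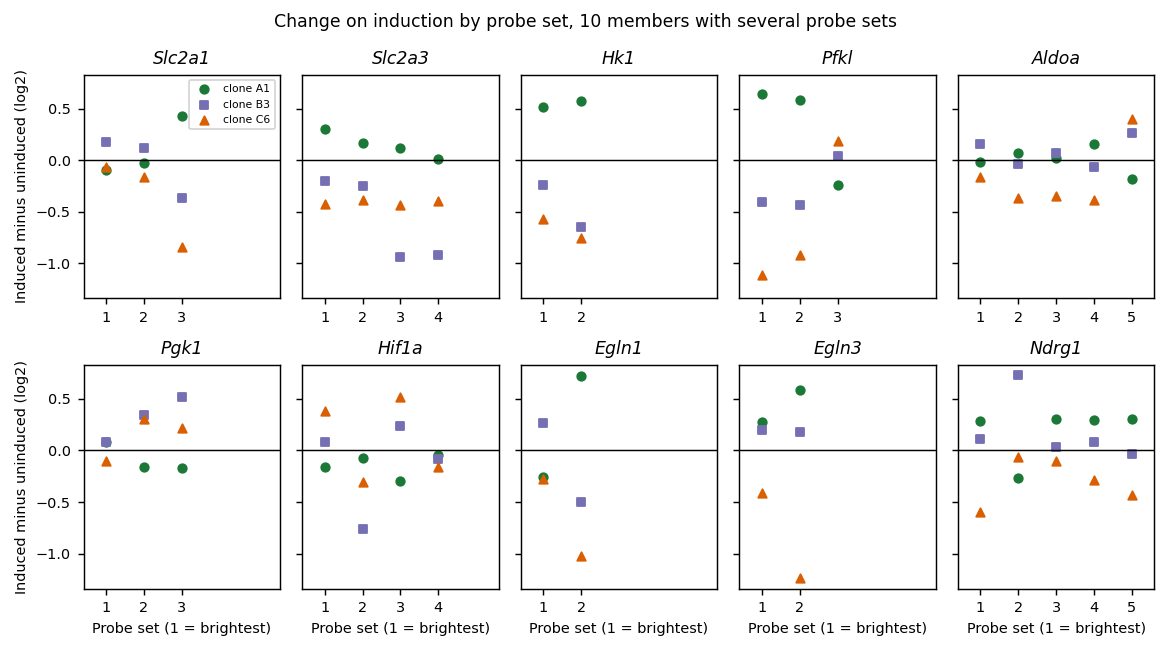
Induced minus uninduced RMA value (log2) of every probe set of 10 genes that have several, ordered by brightness within a gene, for clones A1 (circles), B3 (squares) and C6 (triangles). The 2 brightest of Pfkl show the same order of clones, while those of Slc2a1, Hif1a and Egln1 change order from 1 probe set to the next.

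Of 64 neighbouring genes of the pathway, 55 were measured, and 1 was called in any test. Eno3, the muscle enolase, was lower in C6 than in A1 and B3 by -0.92 over both states (adjusted p = 0.036) and differed by -0.12, 0.10 and 0.01 on induction. In C6, 22 of the 55 were higher and 33 lower after induction, with a median of -0.07, against 28 higher in A1 and 34 in B3. The 17 further hypoxia targets were higher in 3 cases in C6 and 14 in B3, and 1 of the 7 further oxygen sensing genes was higher in C6. The isoforms of glycolysis were higher in 9 of 16 cases in C6, and the pentose phosphate genes in 4 of 6. The smallest unadjusted p in the test of C6 among these genes were 0.024 for Kdm4b, a histone demethylase raised by hypoxia, 0.036 for Pgls of the pentose phosphate pathway and 0.047 for the secreted hormone Stc2, with C6 differences of -0.58, -0.45 and -0.65.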

How the data were processed

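The 6 RNA samples were hybridised to Affymetrix whole-genome mouse arrays. Each deposited value is on the log2 scale and sums up 1 probe set, made by the authors with RMA (background correction, quantile normalization, summary over probes). The tools affy and RMA come from the submitters' processing notes, which give no versions. Quantile normalization gives all arrays nearly 1 distribution, so a shift shared by most genes would not be seen. The values were used as they stood. Of 45101 probe sets, 64 controls were not tested. Of the other 45037, 34945 had 1 gene symbol in the platform annotation, 932 several and 9160 none listed here, and only those with 1 symbol gave gene names.

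Two-sided tests were made with limma 3.58.1 (lmFit, eBayes; R 4.3.3), tried first on simulated data. The p-values were adjusted by Benjamini-Hochberg over the 45037 probe sets, with a threshold of 0.05. Induced and uninduced arrays were compared without the clone, since the methods name no pairing, and limma replaced the t-test that they name. The difference within 1 clone was set against the mean of the other 2 (1 residual degree of freedom), and the level of C6 against A1 and B3 was fitted with the state as a covariate (2 residual degrees of freedom). The same clones stand in both states, so the arrays are paired by clone, and deviations of a pair from the state means correlated at 0.19 for A1, 0.53 for B3 and 0.31 for C6. The number of arrays limits the precision. In the comparison of states, p-values measure the spread between clones of 1 cell line. In the comparison of differences, the spread is the gap between the other 2 clones, moderated by limma over all probe sets. The lone clone was assumed to vary as they do, and its own spread was not measured. In the level test each clone has its own mean, so its p-values measure how the state difference varies between clones. They do not measure whether C6 lies outside the spread of levels between clones.

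Alternatives were another test, variance model, normalization or block, a minimum mean of 6, the brightest probe set of each gene only, and leaving out arrays or clones. Leaving A1 out of the comparisons of C6 and taking every probe set of a gene were added after seeing the data. The members, lists and tests were chosen with earlier results of these data known. Values on every array are given for members called in any test, the 3 highest (only 2 were above 0) and 3 lowest in the C6 comparison, and a fixed set. The fixed set was Hif1a, Egln1, Slc2a1, Hk2, Pfkl, Pfkp, Ldha, Pdk1, Vegfa and Gapdh, with Gapdh given only by the range of its control probe sets. Levels of different probe sets were not compared.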

Additional observations from a re-analysis of the deposited data

Results flagged for a closer look

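There were 5 probe sets of the members, on 4 genes, for which the difference on induction in A1 differed from that in B3 and C6 by the test of the difference itself (limma, adjusted over 45037 probe sets). The same test called 1219 of all probe sets (2.71%). The brightest probe set of Pfkl stood 1.40 above the mean of B3 and C6 (adjusted p = 0.033), and its second stood 1.26 above (adjusted p = 0.026). The dimmer probe set of Hk1 stood 1.28 above (adjusted p = 0.012), the dimmer one of Egln1 1.49 above (adjusted p = 0.017) and the dimmest one of Slc2a1 1.04 above (adjusted p = 0.048). The brightest probe sets of Slc2a1 and Egln1 were not called, and both were lower in A1 and higher in B3. In each of the 5 called, A1 was higher after induction and both B3 and C6 were lower. The 18S ribosomal RNA probe sets ran the other way, from -1.10 to -0.58 in A1 and from 1.50 to 2.52 in B3 and C6, and their part in these results was not tested.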

How the results depend on the processing

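Each clone had 1 array per state, so a difference within a clone has no replicate of its own. The comparison of the states called 0 members and 0 probe sets with the clone as a replicate block and under every other alternative but 1: without clone A1 and with the other clones as a replicate block, 981 probe sets and 1 member (Pfkl, -0.76, adjusted p = 0.046) were called. Without A1 and with no block 0 were called. In the A1 comparison, 1219 probe sets and 1 member were called; quantile normalization again called 1493 probe sets and 2 members (Hk1 and Pfkl), a mean of at least 6 called 2355 probe sets and 3 members (Hk1, Pfkl and Pkm), and 1 probe set per gene called 458. With a variance trend Hk1 (0.92) was called in place of Pfkl (1.40, adjusted p = 0.059). The level of C6 called 115 probe sets and 1 member; a mean of at least 6 called 18 and 0 (Ankrd37 0.93, adjusted p = 0.082), and leaving out 1 array at a time called 6 to 2353 probe sets and 0 to 6 members. Without the uninduced A1 array the level of Slc2a1 passed (0.47, adjusted p = 0.042), and without the induced A1 array that of Pfkl did (0.76, adjusted p = 0.041). The share of members higher in C6, 15.6%, was 9.38% with each array centred on its median. Quantile normalization again left the C6 difference lowest for 68.8% of the members, against 81.2%. No main value past the threshold changed sign, whereas several below it did. The level of Pfkl in C6 ran from -0.21 to 1.02 over the alternatives and that of Hif1a from -0.21 to 0.21, and the difference of Slc16a3 between the states from -1.56 to 0.15. For Pfkl and Hif1a, the ends of the range are the differences of C6 from A1 and B3 within 1 state, reached when 1 C6 array was left out. For Slc16a3 they are the fits without A1 and without C6. The cause of the other shifts was not tested.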
